A study of Mus musculus with 36 samples.

Results

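The genes described here encode the T cell receptor complex, its coreceptors and the surface and adaptor proteins that work with it: the receptor beta chain segment Trbv1, the CD3 chains Cd3g, Cd3d and Cd3e, the coreceptors Cd8a and Cd4, the adaptor Lat, and the surface proteins Cd2, Cd27 and Cd5. They were chosen by name, with earlier results of these data known, as 10 of the 12394 genes that the arrays measured. They are read by 12 probe sets, since Cd4 and Cd8a have a second one each. A T cell recognises peptide on MHC molecules through its clonal receptor chains, which cannot signal alone and depend on the invariant CD3 chains. CD8 and CD4 bind MHC class I and class II and bring the kinase Lck to the receptor, after which ZAP-70 phosphorylates LAT and the signal branches. In a tumor, transcripts of these genes come mainly from infiltrating T cells, but not from them alone. Natural killer cells share CD2 and CD27, for example, and B-1 cells carry CD5.

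BPTF, the subunit of the NURF chromatin remodeling complex that reads histone marks, was knocked down with a pair of shRNAs carried by a retrovirus in the mouse mammary carcinoma lines 67NR and 66cl4, both derived from the same spontaneous tumor of a BALB/c-background mouse. Cells carrying a control shRNA (Control) or a BPTF shRNA (BPTF KD) were grown in the mammary fat pad of female young adult BALB/c mice, which are immune competent, or of NOD/SCID/Ifrg2r -/- (NSG) mice, in which T, B and NK cells are missing. Each line in each host gave 3 Control and 6 BPTF KD tumors, 36 in all, with 1 expression array for each tumor. The labels do not say which hairpin a BPTF KD tumor carried. Tumors of 67NR were harvested earlier than those of 66cl4, from a larger number of injected cells, so cell line, time and inoculum cannot be told apart. Necrotic tissue had been dissected away. The labels call the samples of a group biological replicates, and the spread given below is that between these tumors. In whole tumors, fewer T cells and less RNA for each T cell cannot be told apart.

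Values are levels on the log2 scale after RMA normalization, so a difference of 1 is a doubling, and a probe set's level was set only against the same probe set in other tumors. The 18 NSG tumors, which have no T cells of the host, gave the background of each probe set. Array medians lay between 7.03 and 7.21. The level of Bptf itself goes with the knockdown label only in part. On the main one of its 4 probe sets it was 8.68 to 9.12 in 66cl4 BPTF KD tumors of BALB/c mice against 9.50 to 10.61 in their Controls, with no overlap, but 8.34 to 10.68 against 9.73 to 10.31 in 67NR tumors of BALB/c mice, where BPTF KD replicate 6 lay below every Control. On the other probe sets, 3 (replicates 1, 4 and 6), 4 (replicates 1, 3, 4 and 6) and 1 (replicate 6) of those 6 tumors of 67NR lay below every Control, and replicates 2 and 5 did on none, while in 66cl4 the counts were 6, 6 and 1. In NSG mice the levels of the main probe set overlapped as well, at 9.15 to 10.01 against 9.37 to 10.17 in 67NR and 8.56 to 9.15 against 9.14 to 9.18 in 66cl4. The knockdown groups are therefore written as tumors labelled BPTF KD.

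**Figure D1:**
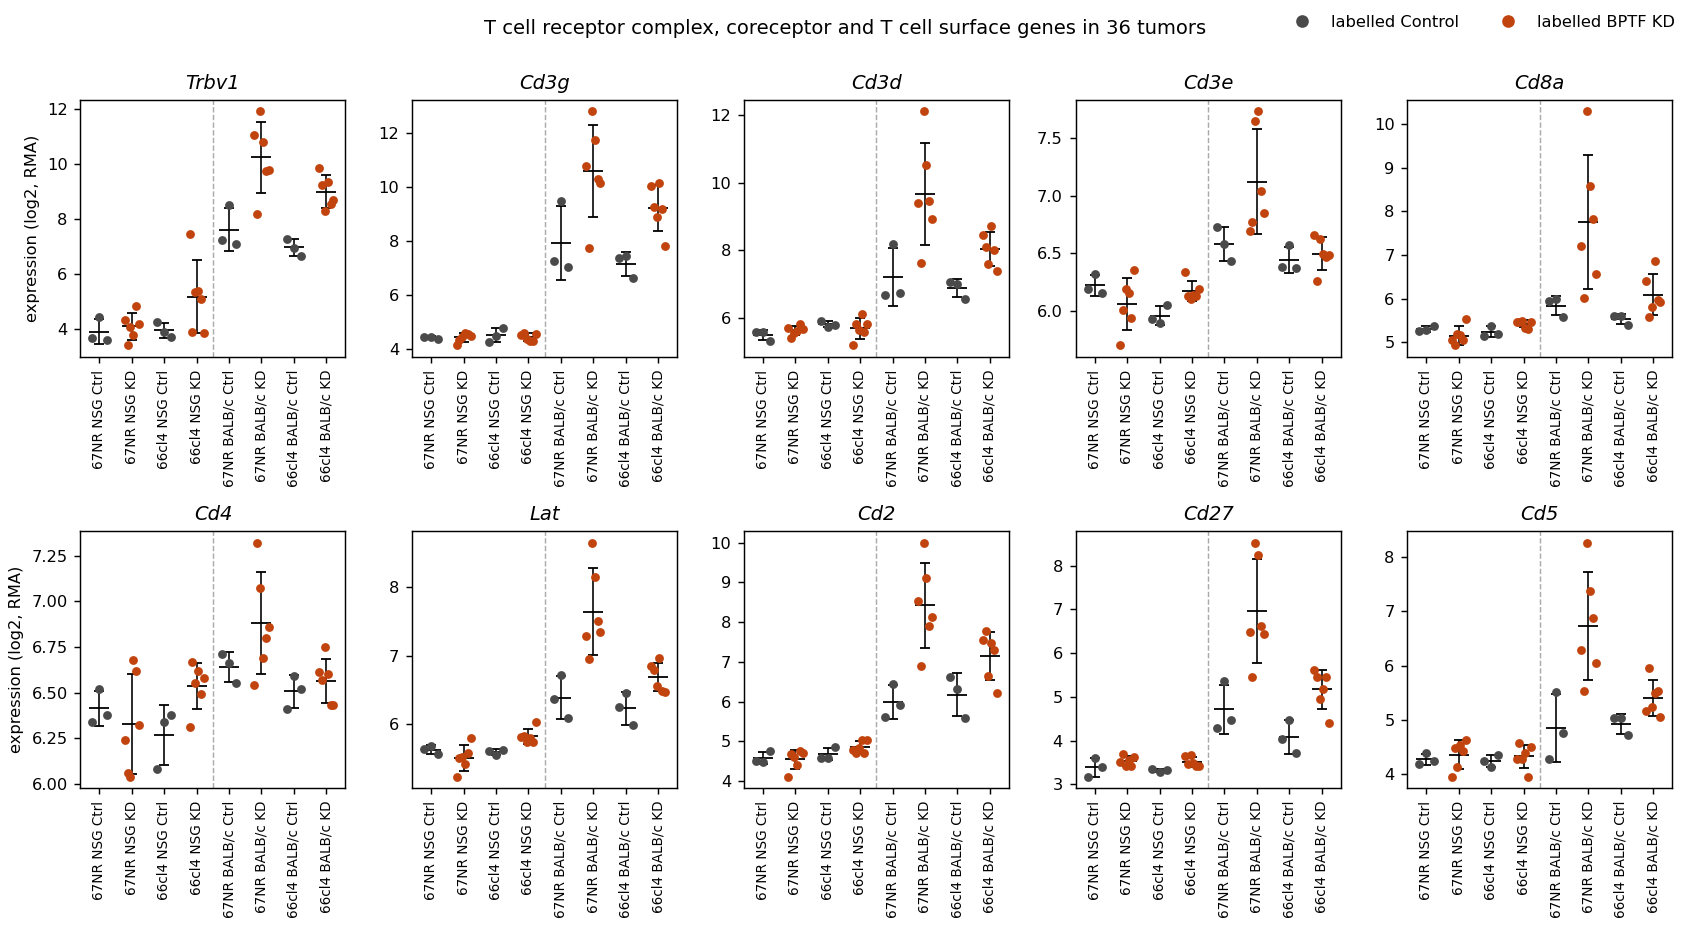
Level of each of the 10 genes (log2, RMA, main probe set, a separate y axis for each gene) in all 36 tumors, by cell line, host and knockdown label; points are single tumors and bars the group mean ± SD, with NSG tumors left of the dashed line and BALB/c tumors right of it. Cd3g sits above every NSG tumor in all 18 BALB/c tumors and Trbv1 in 13. Cd4 passes the NSG range of 6.04 to 6.68 in some BALB/c tumors and reaches 7.32 at most. The 67NR tumors labelled BPTF KD in BALB/c mice have the highest mean for all 10 genes.

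Background was low and tight for most members, which set the scale on which BALB/c tumors could be read. Cd3g, the CD3 gamma chain, spanned 4.12 to 4.77 over the 18 NSG tumors, Cd2 4.11 to 5.03, Cd27 3.18 to 3.70 and Cd5 3.96 to 4.63. For Cd2, Cd3g, Cd3d and Cd27, all 18 BALB/c tumors lay above every NSG tumor, as they did for 0.524% of all genes. For Cd3e 17 of the 18 did, as did 17 for Cd5, Cd8a and Lat. For Cd4, which binds MHC class II on helper T cells, 7 BALB/c tumors passed the highest NSG tumor, 5 of them 67NR tumors labelled BPTF KD. Trbv1 was the exception in NSG mice, and 13 BALB/c tumors lay above every NSG tumor for it. Its level was 3.42 to 4.84 in the 67NR tumors and 3.72 to 4.25 in the 66cl4 Controls, but in 66cl4 tumors labelled BPTF KD it was 3.85 at the lowest, 5.24 at the median and 7.45 at the highest, in replicate 1. The same 6 tumors read 4.28 to 4.59 for Cd3g.

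To ask how far these levels go with the host, BALB/c tumors were compared with NSG tumors of the same line and label. The hosts differ in strain as well as in immune cells, and these cannot be told apart. Since NSG mice lack T cells, higher levels in BALB/c mice were likely from the start. A member was called where the adjusted p of limma, with Benjamini-Hochberg adjustment over all 12394 genes, was below 0.05. In Control tumors of 67NR, 7 of the 10 genes were higher in BALB/c mice, where 3.93% of all genes were called higher. In Control tumors of 66cl4, 5 of 10 were higher, against 1.26% of all genes. In the tumors labelled BPTF KD the counts were 10 of 10 in 67NR and 9 of 10 in 66cl4, against 8.09% and 6.38%. No member was called lower in BALB/c mice, where 3.65% and 1.27% of all genes were lower in 67NR and 66cl4 Controls and 7.7% and 4.67% in the tumors labelled BPTF KD.

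In 67NR Controls the 7 called genes were Trbv1, Cd3g, Cd3d, Cd2, Cd27, Lat and Cd8a. The difference in log2 level was 3.71 ± 0.37 (SE) for Trbv1 (limma adjusted p = 0.00233) and 3.50 ± 0.55 for Cd3g (limma adjusted p = 0.0113). It was 0.36 for Cd3e, 0.58 for Cd5 and 0.23 for Cd4, and none of these 3 passed (limma adjusted p = 0.0944, 0.205 and 0.21). In 66cl4 Controls the 5 called genes were Trbv1 (3.01 ± 0.20), Cd3g (2.64 ± 0.25), Cd2 (1.50), Cd3d (1.06) and Cd5 (0.69), all differences in log2 level. The other 5 had differences of 0.24 to 0.75, with limma adjusted p from 0.0573 for Lat to 0.241 for Cd4. With 3 tumors a group these counts rested on single tumors: the 67NR count fell from 7 to 3 or 4 without NSG Control replicate 1 (3), NSG Control replicate 3 (4) or BALB/c Control replicate 1 (4), and the 66cl4 count fell from 5 to 2 without any 1 of the NSG Controls or without BALB/c Control replicate 2. In a single fit of all 36 tumors 2 members were called in each line, against 1.53% and 1.2% of all genes. By the methods' t-test with Benjamini-Hochberg adjustment 0 were called in each, beside 8 and 9 members at an unadjusted limma p under 0.05, where 15.6% and 15.9% of all genes lay.

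Among tumors labelled BPTF KD, Cd3g was 6.17 ± 0.63 higher on the log2 scale in BALB/c than in NSG mice for 67NR (limma adjusted p = 0.000109) and 4.79 ± 0.30 higher for 66cl4 (limma adjusted p = 1.74e-07). Trbv1 was 6.12 ± 0.51 and 3.81 ± 0.50 higher in the same order. Cd3d followed with 4.05 and 2.35, Cd2 with 3.88 and 2.31, and Cd27 with 3.42 and 1.66. Cd4 was 0.55 ± 0.16 higher in 67NR (limma adjusted p = 0.0309), a call lost in 6 of the 12 runs that left out 1 tumor, and 0.03 ± 0.08 higher in 66cl4 (limma adjusted p = 0.87), where the sign turned under other settings. A list of 7 measured natural killer cell marker genes moved with the host too: its mean log2 level was 4.95 to 5.81 over all NSG tumors and 7.05 to 10.55 over all BALB/c tumors, and all 7 genes were called higher in BALB/c mice in every group but the 66cl4 Controls, where 3 were. In 67NR tumors labelled BPTF KD, 5 of 5 mast cell genes, 4 of 5 dendritic cell genes, 3 of 6 B cell genes and 3 of 4 granulocyte genes were called higher in BALB/c mice, and in 67NR Controls 2 of 5 dendritic cell genes and 0 of the others. In 66cl4, skeletal muscle genes were also higher in BALB/c mice, 4 of 5 in Controls and 5 of 5 in tumors labelled BPTF KD, and the part of these cell types in the members' differences was not tested. The 3′ minus 5′ Gapdh difference, a sign of RNA breakdown, also went with the host. Its group means were 0.205 to 0.33 in BALB/c mice and -0.025 to 0.0617 in NSG mice. For actin they overlapped, at 1.12 to 1.38 and 0.943 to 1.28. The part of RNA quality in the host differences was not tested.

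**Figure D2:**
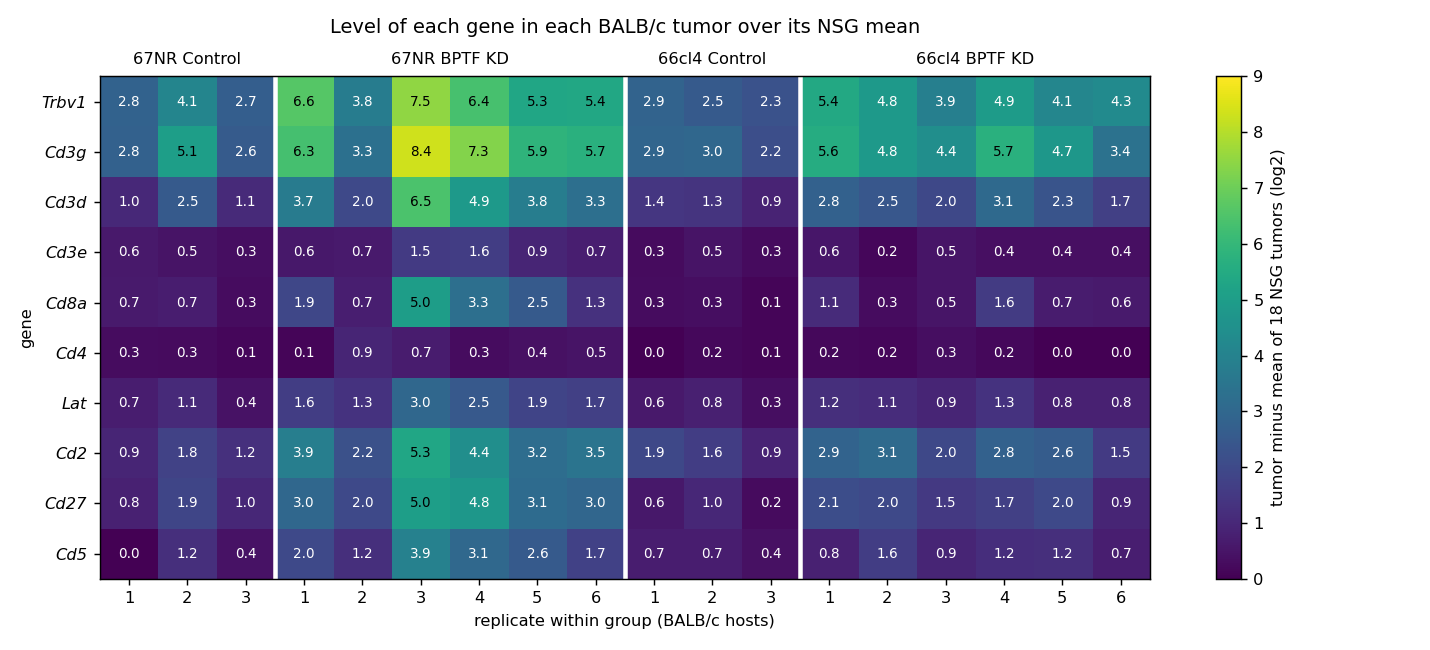
Heat map of the level of each gene (rows) in each of the 18 BALB/c tumors (columns) minus the mean of the 18 NSG tumors for that gene, as a log2 difference. The columns of 67NR tumors labelled BPTF KD are the brightest (highest), above all replicate 3, while the Cd4 and Cd3e rows stay dark (low) in both lines.

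The knockdown label was then examined within BALB/c mice. In 67NR, 0 of the 10 members passed the test, as did 0% of all genes, although the mean of all 10 was higher in the tumors labelled BPTF KD and 8 had an unadjusted p under 0.05, against 4.37% of all genes higher at that level. In 66cl4, Trbv1 passed, 1 of 10 against 0.113% of all genes called higher and 0.0726% called lower, and 8 of 10 were higher at an unadjusted p under 0.05, against 12.4% of all genes. The median difference in log2 level over the members was 2.08 in 67NR, beside a median of -0.00 over all genes, and 0.77 in 66cl4, beside 0.03. Tumors labelled BPTF KD lay above every Control without overlap for 5 members in each line, against 3.13% of all genes in 67NR and 3.78% in 66cl4: Cd2, Cd5, Cd8a, Cd27 and Lat in 67NR, and Trbv1, Cd3g, Cd3d, Cd5 and Lat in 66cl4. The 67NR count depended on which tumors gave the spread: in a single fit of all 36 tumors, 9 of 10 members passed in 67NR, all but Cd4, against 3.23% of all genes, and 0 passed in 66cl4. That fit takes the spread of a gene as equal in all groups, which it was not. The SD of Cd3g was 1.71 in 67NR tumors labelled BPTF KD in BALB/c mice and 0.04 to 0.27 in the NSG groups. The SE of its 67NR difference was 0.61 in the single fit and 0.99 otherwise. The members were chosen with earlier results of these data known, and several of them vary together. The shares of all genes set beside their counts therefore describe the members and are not independent tests.

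**Figure D3:**
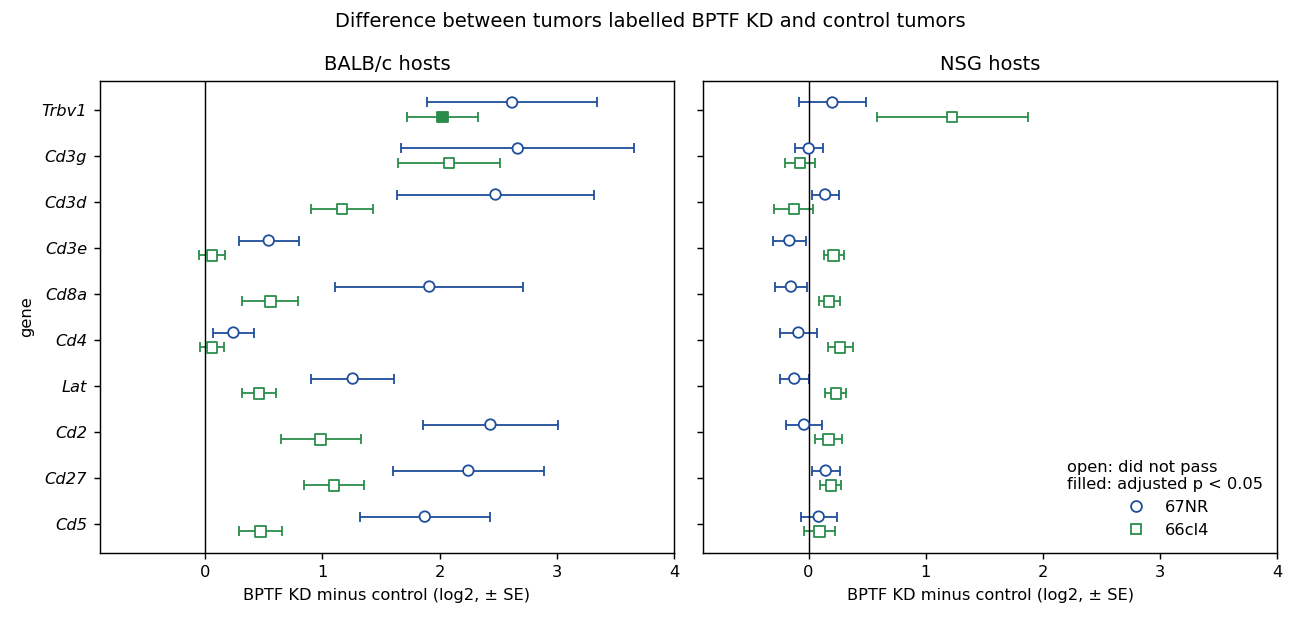
Difference in log2 level, BPTF KD minus Control, with its SE, for each gene in BALB/c mice (left) and NSG mice (right); circles are 67NR and squares 66cl4, filled where the limma adjusted p was below 0.05. All 10 differences lie above 0 in both lines in BALB/c mice, with wide error bars in 67NR, and the single filled symbol is Trbv1 in 66cl4; in NSG mice the differences lie near 0 except Trbv1 in 66cl4, at 1.23 ± 0.64.

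Trbv1 is a variable segment of the receptor beta chain, the part of the receptor that contacts peptide and MHC, and is read by a probe set that can also bind related transcripts. In 67NR tumors of BALB/c mice its log2 level was 7.24, 8.52 and 7.09 in the Controls and 8.18 at the lowest, 10.29 at the median and 11.90 at the highest in the tumors labelled BPTF KD. All but BPTF KD replicate 2 lay above every Control. The difference was 2.62 ± 0.72 (limma adjusted p = 0.609).

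In 66cl4 the Controls read 7.29, 6.95 and 6.67 for Trbv1 and the tumors labelled BPTF KD 8.29, 8.98 and 9.84 at the lowest, median and highest, so the groups were apart. The difference was 2.02 ± 0.30 (limma adjusted p = 0.0479), the one call among the members. It stood close to the threshold: the limma adjusted p was 0.144 without Control replicate 2, 0.181 without Control replicate 3, 0.0735 without BPTF KD replicate 1, 0.0771 without replicate 2, 0.0831 without replicate 4 and 0.0777 without replicate 5, with the difference between 1.85 and 2.18 in every run that left out 1 tumor, and it was 0.243 in a single fit of all 36 tumors. In NSG mice Trbv1 was 1.23 ± 0.64 higher in 66cl4 tumors labelled BPTF KD (limma adjusted p = 0.697), and 0.77 higher without replicate 1, the tumor at 7.45.

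The CD3 chains are invariant and pair as gamma with epsilon and delta with epsilon, so that a complete receptor holds both pairs. Their genes lie together on chromosome 9, with Cd3g and Cd3d transcribed away from each other. The 250 bases before the RefSeq start of each are shown, from GRCm38.p6 and 5′ to 3′ on the strand of the gene, because Cd3g and Cd3d varied together over these tumors while Cd3e varied less. Capitals mark the ETS core GGAAG on either strand, a motif bound by a factor family with members active in T cells.
Cd3g, chr9:44980432-44980681, minus strand: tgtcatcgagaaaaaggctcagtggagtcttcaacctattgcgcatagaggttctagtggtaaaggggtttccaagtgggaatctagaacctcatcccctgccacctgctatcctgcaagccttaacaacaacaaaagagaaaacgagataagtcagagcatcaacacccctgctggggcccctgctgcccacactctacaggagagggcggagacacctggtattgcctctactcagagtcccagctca
Cd3d, chr9:44981536-44981785, plus strand: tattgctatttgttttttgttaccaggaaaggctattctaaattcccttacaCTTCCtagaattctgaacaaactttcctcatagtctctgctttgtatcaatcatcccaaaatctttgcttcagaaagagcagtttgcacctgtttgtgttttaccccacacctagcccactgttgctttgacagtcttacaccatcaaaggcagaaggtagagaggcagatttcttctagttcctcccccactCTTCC
Cd3e, chr9:45009612-45009861, minus strand: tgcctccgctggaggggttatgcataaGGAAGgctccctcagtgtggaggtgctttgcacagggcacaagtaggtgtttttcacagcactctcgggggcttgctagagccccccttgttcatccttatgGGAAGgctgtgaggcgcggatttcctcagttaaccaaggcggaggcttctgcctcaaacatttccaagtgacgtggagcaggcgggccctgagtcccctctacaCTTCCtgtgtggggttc
The ETS core stood in the windows of Cd3d, Cd3e, Cd8a, Lat, Cd27 and Cd5, 6 of the 7 members that the table holds, and in 64.1% of 32851 mouse promoter windows of that length. The RUNX core TGTGGT, read on both strands, was in 0 of the 7 windows and in 14% of all.

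Cd3g had the largest SE among the members in 67NR. In 67NR Controls of BALB/c mice it read 7.24, 9.49 and 7.03 on the log2 scale, and in the tumors labelled BPTF KD 7.74 at the lowest, 10.54 at the median and 12.80 at the highest. The groups overlapped because Control replicate 2 lay above BPTF KD replicate 2. The difference of 2.67 ± 0.99 did not pass (limma adjusted p = 0.609) and ran from 2.22 to 3.45 as single tumors were left out. In 66cl4 the Controls read 7.36, 7.43 and 6.61 and the tumors labelled BPTF KD 7.82, 9.22 and 10.15 at the lowest, median and highest. Here the groups were apart, and the difference of 2.08 ± 0.43 missed the threshold (limma adjusted p = 0.0648). It passed without Control replicate 1 (limma adjusted p = 0.0194) and without BPTF KD replicate 6 (limma adjusted p = 0.0214), where Cd3d and Cd27 passed as well.

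Cd3d, the delta chain, had the same tumor, BPTF KD replicate 3, at the top in 67NR. There it read 6.67, 8.19 and 6.72 in the Controls and 7.62, 9.43 and 12.11 at the lowest, median and highest in the tumors labelled BPTF KD, with Control replicate 2 again inside the range of the other group. In 66cl4 it read 7.06, 6.99 and 6.56 against 7.37, 8.05 and 8.72, with no overlap. The differences were 2.48 ± 0.84 and 1.17 ± 0.27 (limma adjusted p = 0.609 and 0.0668). After each group's mean was removed, Cd3g and Cd3d had a Pearson r of 0.955 over the 18 BALB/c tumors, given as a description of tumors that share their arrays and their total RNA.

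Cd3e, the epsilon chain, had an NSG background of 5.70 to 6.35, which 17 of the 18 BALB/c tumors exceeded. In 67NR it read 6.73, 6.58 and 6.43 in the Controls and 6.69, 6.95 and 7.73 at the lowest, median and highest in the tumors labelled BPTF KD, and in 66cl4 6.38, 6.57 and 6.37 against 6.26, 6.49 and 6.66. The groups overlapped in both lines. The differences were 0.54 ± 0.26 in 67NR and 0.06 in 66cl4 (limma adjusted p = 0.658 and 0.787). The difference between the chains in how far they moved was not tested.

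Cd8a, whose product binds MHC class I on cytotoxic T cells, read 5.94, 5.99 and 5.58 in 67NR Controls of BALB/c mice and 6.02, 7.52 and 10.29 at the lowest, median and highest in the tumors labelled BPTF KD. The groups were apart by the narrow step from 5.99 to 6.02. The difference was 1.91 ± 0.80 (limma adjusted p = 0.637), and 1.40 without BPTF KD replicate 3, the tumor at 10.29. In 66cl4 the Controls read 5.59, 5.61 and 5.40 and the tumors labelled BPTF KD 5.57, 5.95 and 6.86, with a difference of 0.56 ± 0.24 (limma adjusted p = 0.173) and with overlap.

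The second Cd8a probe set had a lower background, 3.56 to 4.29, and showed the same 67NR tumors high: it read 4.47, 4.83 and 3.78 in the Controls and 4.62, 6.30 and 9.75 at the lowest, median and highest in the tumors labelled BPTF KD. Its difference was 2.24 ± 1.06 in 67NR and 0.19 ± 0.32 in 66cl4, and neither passed in a fit of all probe sets (limma adjusted p = 0.654 and 0.775). Cd8b1, the beta chain that pairs with Cd8a, had differences of 2.47 and 1.12.

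Cd4 read 6.71, 6.66 and 6.55 in 67NR Controls and 6.54, 6.83 and 7.32 at the lowest, median and highest in the tumors labelled BPTF KD of that line. In 66cl4 it read 6.41, 6.59 and 6.52 against 6.43, 6.59 and 6.75. The groups overlapped in both lines, and 1 of the 66cl4 tumors lay above the highest NSG tumor. The differences were 0.24 ± 0.17 and 0.06 (limma adjusted p = 0.748 and 0.764). The second Cd4 probe set spanned 5.24 to 5.80 and 5.35 to 5.64 in the tumors labelled BPTF KD of 67NR and 66cl4, against 5.09 to 5.60 in NSG tumors, with differences of -0.07 and -0.09. The host comparison of 67NR tumors labelled BPTF KD was the only one that called the main Cd4 probe set.

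**Figure D4:**
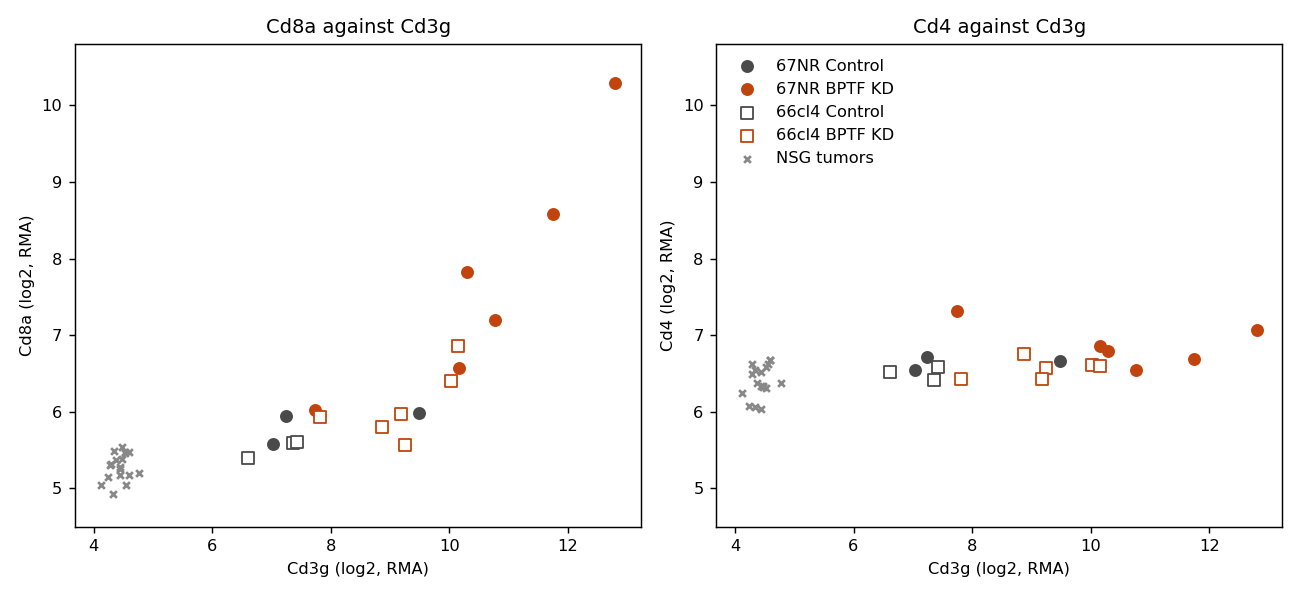
Level of Cd8a (left) and Cd4 (right) against the level of Cd3g (x axis) in all 36 tumors, log2 RMA values of the main probe sets, by line, host and label. Cd8a climbs to 10.29 in the 67NR tumors labelled BPTF KD where Cd3g is highest. Cd4 stays between 6.04 and 7.32 along the whole range of Cd3g. How strongly its probe set responds to Cd4 RNA was not tested.

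Within the 6 BALB/c tumors of 67NR labelled BPTF KD, Cd8a tracked Cd3g with a Pearson r of 0.903 and a Spearman rho of 0.943 (exact permutation p = 0.00833 and 0.0167, Benjamini-Hochberg adjusted over 8 relations 0.0667 and 0.133). Without the 2 tumors farthest from the median of Cd3g, r was 0.795. In 66cl4 r was 0.648 (exact permutation p = 0.128, adjusted 0.511). For Cd4 and Cd3g in 67NR r was -0.454. None of the 8 relations passed the adjustment.

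Lat, the membrane adaptor that carries the signal on after ZAP-70, read 6.36, 6.71 and 6.09 in 67NR Controls of BALB/c mice and 6.95, 7.42 and 8.65 at the lowest, median and highest in the tumors labelled BPTF KD. In 66cl4 it read 6.25, 6.45 and 5.98 against 6.47, 6.68 and 6.97. Lat was apart between the labels in both lines, in 66cl4 by the narrow step from 6.45 to 6.47. The differences were 1.26 ± 0.35 and 0.46 ± 0.15 (limma adjusted p = 0.609 and 0.0961).

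Cd2, an adhesion receptor of T and NK cells, had the difference in 67NR with the lowest adjusted p. It read 5.61, 6.45 and 5.92 in the Controls and 6.89, 8.33 and 10.00 at the lowest, median and highest in the tumors labelled BPTF KD, with no overlap and a difference of 2.43 ± 0.58 (limma adjusted p = 0.566). In 66cl4 it read 6.62, 6.32 and 5.58 against 6.21, 7.39 and 7.78, where BPTF KD replicate 6 fell below 2 Controls, and the difference was 0.98 ± 0.34 (limma adjusted p = 0.112).

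Cd27, a costimulatory receptor of the TNF receptor family, read 4.30, 5.36 and 4.48 in 67NR Controls and 5.45, 6.55 and 8.52 at the lowest, median and highest in the tumors labelled BPTF KD, and in 66cl4 4.04, 4.48 and 3.72 against 4.41, 5.32 and 5.61. The groups were apart in 67NR and overlapped in 66cl4 through BPTF KD replicate 6. The differences were 2.25 ± 0.64 and 1.10 ± 0.25 (limma adjusted p = 0.609 and 0.0674).

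Cd5, a negative regulator of receptor signalling that B-1 cells also carry, read 4.29, 5.52 and 4.76 in 67NR Controls and 5.54, 6.58 and 8.26 at the lowest, median and highest in the tumors labelled BPTF KD. In 66cl4 it read 5.04, 5.04 and 4.72 against 5.06, 5.37 and 5.95. The groups were apart in both lines, by the narrow steps from 5.52 to 5.54 and from 5.04 to 5.06. The differences were 1.87 ± 0.55 and 0.47 ± 0.18 (limma adjusted p = 0.609 and 0.14).

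Several members shared their highest and lowest tumors. Among the 67NR tumors labelled BPTF KD in BALB/c mice, replicate 3 was the highest for 8 of the 10 genes and replicate 2 the lowest for 8. Averaged over the members, the log2 level above the NSG mean was 2.98, 1.81, 4.69, 3.85, 2.97 and 2.67 for replicates 1 to 6, against 1.07, 1.91 and 1.03 in the 3 Controls. Control replicate 2 was thus above BPTF KD replicate 2. In 66cl4 the averages were 2.27, 2.06, 1.69, 2.29, 1.90 and 1.45 against 1.17, 1.20 and 0.77, with every tumor labelled BPTF KD above every Control. Replicate 6, at 1.45, was the lowest for 6 of the 10 genes, while the highest tumor was replicate 4 for 4 genes, replicate 1 for 3, replicate 2 for 2 and replicate 3 for 1.

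Likeness to genes outside the members was ranked over the 18 BALB/c tumors, with each group's mean removed. The non-member genes most like Cd3g were Cxcr6 (r = 0.96), Hcst (0.94) and Klrc1 (0.93). They encode a chemokine receptor, a signalling adaptor and an inhibitory receptor of NK cells and some T cells. The member Cd3d, with r = 0.955, was closer to Cd3g than Hcst and Klrc1. Those most like Cd8a were Ptger2, Tmem229b and Il18bp, each with r = 0.95. Those most like Cd4 were Src (0.82), Pknox1 (0.81) and Spock1 (0.81). Among the 50 genes nearest to Cd3d there were 6 other members, with 5 for Cd3g and for Cd27, and 0 for Cd4 and for Cd3e. The highest r of Cd4 with any member was 0.08.

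The other measured genes of the pathway were counted in the same BALB/c comparisons, and none of them passed the test in either line. Of the receptor chains outside the members, 3 of 17 were measured, with a median log2 difference of 2.22 in 67NR and 0.75 in 66cl4. Cd247, the zeta chain, had 2.22 ± 0.79 and 0.75 ± 0.20 (limma adjusted p = 0.609 and 0.0778). Of 26 proximal signalling genes 19 were measured, with medians of 0.45 and 0.04, and those with the smallest p in 67NR were Cd7 (0.83), the adaptor Sh2d1a (2.10), the costimulatory receptor Cd28 (1.64) and Cd6 (0.78). The inhibitors of receptor signalling, 12 of 16 measured, had medians of 0.55 and 0.14.

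The binding partners of the coreceptors and of CD2, 9 of 10 measured, had medians of 1.03 and 0.77. The MHC class II genes led in 67NR, with differences of 2.70 for H2-Ea, 2.29 for H2-Eb1, 1.96 for H2-Ab1 and 1.67 for H2-Aa, and limma adjusted p of 0.397 at the lowest. In 66cl4, H2-Aa had 1.17 (limma adjusted p = 0.0696). Surface and effector genes of T cells, 18 of 20 measured, had medians of 1.45 and 0.40: in 67NR Pdcd1, the checkpoint receptor PD-1, had a difference of 2.64, the chemokine Ccl5 2.24, Il2rb 2.09 and Ctla4 1.54. In 66cl4 Cxcr6 had 2.19 and Pdcd1 1.21. The transcription factors of the T lineage, 14 of 17 measured, had medians of 0.27 and -0.00.

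Marker genes of other cell types differed between the same groups. The mean log2 level of the natural killer list was 8.35 at the lowest, 9.30 at the median and 10.55 at the highest in 67NR tumors labelled BPTF KD against 7.96 to 8.07 in Controls, and 7.47, 8.03 and 8.60 against 7.05 to 7.48 in 66cl4. The mast cell list, 5 of 5 genes, read 8.14 to 10.55 against 6.56 to 7.47 in 67NR, and the B cell list, 6 of 7 genes, 5.28 to 6.64 against 5.18 to 5.24. The dendritic cell list, 5 of 7 genes, read 6.41 to 7.60 against 5.87 to 5.96 in 67NR. The lymph node stroma list, 3 of 5 genes, read 5.55 to 7.47 against 5.06 to 5.44 in 67NR and 6.54 to 7.02 against 5.61 to 6.41 in 66cl4, without overlap in either line. Its genes were unlike in level: in these Controls Cxcl13 averaged 6.49 in 67NR and 9.09 in 66cl4, and Madcam1 and Glycam1 4.47 to 4.62. The list also read 6.09 to 6.88 in the 66cl4 tumors of NSG mice. The epithelium list, 6 of 6 genes, read 5.31 to 7.53, with a median of 6.32, against at most 5.47 in the Controls of 67NR. In 66cl4, Ms4a1, which encodes the B cell protein CD20, passed with a difference of 2.21 (limma adjusted p = 0.0493), and the B cell list read 5.46 to 5.83 against 5.06 to 5.22. The macrophage list averaged 12.05 against 12.33 in 66cl4 and 11.50 against 11.52 in 67NR, and the granulocyte list 8.15 against 7.81 and 7.33 against 7.15. The skeletal muscle list, 5 of 5 genes, read 7.07 to 12.18 in 66cl4 tumors labelled BPTF KD and 9.44 to 12.00 in their Controls. In 67NR it read 5.15 to 5.43 in the Controls and 5.58 at the median in the tumors labelled BPTF KD, but 12.49 in replicate 3 and 7.96 in replicate 4, the tumors with the highest member averages. Without replicate 3 the member differences in 67NR kept their direction, with 2.12 for Cd2, 1.99 for Cd3d, 1.93 for Cd27 and 2.29 for Trbv1, and 0 members passed. The 3′ minus 5′ actin difference, a sign of RNA breakdown, averaged 1.38 against 1.12 in 66cl4 (exact permutation p = 0.0952) and 1.26 against 1.32 in 67NR (exact permutation p = 0.81). For Gapdh the averages were 0.205 against 0.217 in 66cl4 and 0.33 against 0.293 in 67NR. The part of these other cell types and of RNA quality in the members' differences was not tested.

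The label difference in BALB/c mice was then set against that in NSG mice. NSG mice have no T cells and most members lay at background there, so this comparison largely repeats the BALB/c difference. For Cd2 in 67NR it gave 2.47, beside 2.43 within BALB/c mice. It cannot show whether the label acts on T cells differently by host. In 67NR the difference between the BALB/c and NSG effects was above 0 for all 10 members, with a median of 2.08 on the log2 scale, and 9 had an unadjusted p under 0.05, against 3.4% of all genes higher at that level. None of the 10 passed, Cd2 having the lowest limma adjusted p, 0.397. In a single fit of all 36 tumors Cd2 and Lat passed (limma adjusted p = 0.0441 and 0.0474), against 0.145% of all genes. In 66cl4 none passed either: Cd3g had 2.15 ± 0.49 and Cd3d 1.29 (limma adjusted p = 0.263 for both), the median was 0.59, and 3 had an unadjusted p under 0.05, against 5.95% of all genes. Leaving out BALB/c BPTF KD replicate 6 brought Cd3g past the threshold (2.43, limma adjusted p = 0.017). Within NSG mice no member passed in either line, where 0.589% of all genes were called higher and 0.549% lower in 67NR and 0% in 66cl4, with differences of -0.16 to 0.20 in 67NR and, Trbv1 apart, -0.13 to 0.27 in 66cl4. In 66cl4, Lat, Cd4 and Cd3e were higher there at an unadjusted p under 0.05, against 5.36% of all genes, and Lat, Cd27 and Cd3e lay above every Control in all 6 tumors labelled BPTF KD, against 3.32%.

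The lines were compared last. The effect of the label in BALB/c mice was larger in 67NR than in 66cl4 for all 10 members, with a median gap of 0.97 in log2 difference, but none passed (lowest limma adjusted p = 0.503), and Cd5, at 1.40 ± 0.62, was the 1 member with an unadjusted p under 0.05, against 4.09% of all genes higher at that level. In Control tumors of BALB/c mice the lines did not differ by the test for any member, with 67NR minus 66cl4 from -0.18 to 0.79 in log2 level, whereas 13.5% of all genes were called higher and 12.6% lower in 67NR. Cd3g stood at the upper end, with 0.79 ± 0.59 (limma adjusted p = 0.389), a difference that Control replicate 2 of 67NR, at 9.49, set apart from the other 2 tumors at 7.24 and 7.03. The skeletal muscle list read 5.15 to 5.43 in these 67NR Controls and 9.44 to 12.00 in those of 66cl4, and its part was not tested.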

How the data were processed

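The 36 tumors were measured on Affymetrix mouse arrays from 500 ng of total RNA each. The authors deposited log2 values after RMA, which corrects background, quantile normalizes and summarises probes; the software version is not given in the sources used here. RMA draws arrays together and compresses low signals, so differences near background are understated. The number of arrays limits the precision. Of 22690 probe sets, 20393 had 1 gene symbol in the platform annotation, 691 several and 1606 none. Each of 12394 genes was read from its single-symbol probe set with the highest mean. Groups came from the labels. Each comparison was fitted with limma 3.58.1 (R 4.3.3) on its own groups, two-sided, its p values adjusted by Benjamini-Hochberg over the genes and called below 0.05. Exact permutation tests used scipy 1.17.1 and figures matplotlib 3.10.9 (Python 3.11.15, numpy 2.4.6, pandas 2.3.3). The fitting code was tested on simulated data. Alternatives were a spread shared by all 36 tumors, the methods' t-test, removal of the dimmest 25% of genes, quantile normalization, array-median centring, a replicate block, another choice of probe set, leaving out each tumor in turn and, added after the data were seen, a fit of all probe sets. The genes named were the 10 members, Bptf, up to 4 genes with the smallest p in each list for a BALB/c comparison, and the 3 non-member genes most like Cd3g, Cd4 or Cd8a. Members and lists were chosen with earlier results of these data known. Promoter sequences came from RefSeq (GRCm38.p6), which held 7 of the 10 members. Deviations of same-numbered tumors correlated with either sign, and differently numbered tumors were not compared, so pairing was not settled.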

Additional observations from a re-analysis of the deposited data

Results flagged for a closer look

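Of 48 groups of 6 tumors examined, 3 held a tumor far from the other 5 by Dixon's criterion, which chance alone meets in about 1 group in 20, and all 3 lay in NSG mice. The second Cd4 probe set read 5.09 in 67NR BPTF KD replicate 1, against 5.29 to 5.35 in the others of its group. The second Cd8a probe set read 4.29 in 67NR BPTF KD replicate 6, against 3.69 to 3.87. Lat read 6.03 in 66cl4 BPTF KD replicate 6, against 5.73 to 5.83. These are log2 levels, and no result of the BALB/c tumors uses them other than as part of the NSG background.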

How the results depend on the processing

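Of 2256 member differences recomputed under the alternatives, 2137 kept their direction and their side of the threshold, 73 lost a call, 25 gained one and 21 changed sign. Sharing the spread over all 36 tumors moved the count of called members from 0 to 9 for the label in 67NR in BALB/c mice, from 1 to 0 in 66cl4, from 7 to 2 and from 5 to 2 for the host in 67NR and 66cl4 Controls, and from 0 to 2 for the difference between hosts in 67NR. The methods' t-test called 0 members for the label in 66cl4 in BALB/c mice and 0 for the host in the Controls of either line, and quantile normalization 0 for the label in 66cl4. Leaving out 1 tumor at a time gave 0 to 4 called members for the label in 66cl4 in BALB/c mice, 3 to 7 and 2 to 7 for the host in 67NR and 66cl4 Controls, 9 to 10 and 8 to 9 for the host in tumors labelled BPTF KD, 0 to 1 for the difference between hosts in 66cl4, and 0 elsewhere. The causes were not tested.

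Same-numbered tumors correlated from -0.451 to 0.671. Differently numbered tumors were not compared, so whether the numbers pair the tumors was not settled. With the replicate number as a block, 8 members were called for the host in 66cl4 Controls and 1 for the line in Controls, and for the label in 66cl4 in BALB/c mice Cd3g was called (2.25 ± 0.18, limma adjusted p = 0.0491) and Trbv1 was not (2.16, limma adjusted p = 0.0642).

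Sign changes were all in differences near 0 or in the line comparison of 3 against 3 Controls. The host difference of Cd4 in 66cl4 tumors labelled BPTF KD became -0.00576 under quantile normalization and -0.0142 after array medians were subtracted, and ran from -0.017 to 0.055 with 1 tumor left out. The line difference ran from -0.48 to 0.043 for Cd2, -0.18 to 0.59 for Cd3d, -0.41 to 0.21 for Cd5 and -0.0017 to 0.31 for Lat with 1 tumor left out. In NSG mice the label difference in 67NR became -0.0264 (quantile) and -0.12 (replicate block) for Cd3g, -0.0867 (replicate block) for Cd5 and 0.015 for Cd8a with the probe set of largest variance. With 1 tumor left out it ran from -0.085 to 0.05 for Cd2 and -0.033 to 0.061 for Cd3g in 67NR, and from -0.2 to 0.065 for Cd3g in 66cl4.

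Counts of called genes, with all tumors kept, ranged from 0 to 607 for the label in 67NR in BALB/c mice (0 in the fit reported), 0 to 64 in 66cl4 (23), and 10 to 685 in 67NR in NSG mice (141). For the host they ranged from 15 to 1902 in 67NR Controls (940), 0 to 2268 in 66cl4 Controls (314), 1674 to 3908 in 67NR tumors labelled BPTF KD (1957) and 579 to 2524 in those of 66cl4 (1370), so the shares of all genes set beside the members' counts move with the setting as well.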

Other observations

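There were 11 other receptor chain probe sets, with 5 genes among them. Only Trav9d-3 and Trgv4 are given here, and they were chosen after their values were seen. The alpha chain segment Trav9d-3 read 3.19 to 3.85 over the NSG tumors on the log2 scale and 6.58, 7.01, 11.15, 9.28, 8.88 and 7.61 in replicates 1 to 6 of the 67NR tumors labelled BPTF KD in BALB/c mice, with replicate 3 again the highest. The gamma chain segment Trgv4 read 3.42 to 4.10 over the NSG tumors, and in those same replicates 5.82, 3.86, 6.87, 3.85, 4.02 and 4.63, so that replicates 1 and 3 stood apart and replicate 4, which was high for Cd8a and Trav9d-3, lay at background. The 67NR Controls read 4.48, 4.71 and 4.21 for Trgv4. In 66cl4 BPTF KD replicate 1 of NSG mice, where Trbv1 read 7.45, Trav9d-3 read 3.46 and Trgv4 3.82, against 3.26 to 3.63 and 3.60 to 3.67 in the 66cl4 Controls of NSG mice.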
